A study of Drosophila melanogaster with 6 samples.

Results

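All peaks of Cmi on the X chromosome of Drosophila melanogaster were examined, as listed in 4 genome-wide peak lists from chromatin immunoprecipitation with sequencing (ChIP-seq). Every peak that a list places on the sequence X was taken, and no peak was chosen by a measured value. This gave 5012 of the 37144 peaks in all: the embryo list gave 1701 of its 15372, wandering larvae of the third instar 1126 of 6487, white prepupae 1500 of 9236 and S2 cells, a Drosophila cell line, 685 of 6049. Peaks on the heterochromatic sequence XHet were not members.

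The larva, prepupa and S2 lists come from 1 ChIP library each, made with an antiserum against Cmi on formaldehyde-fixed chromatin, and each has an input library without antibody. The labels give the genotype Y cn bw sp for these libraries, S2 cells included, and whole animals were used at the larval and prepupal stages. The labels give no sex for the animals, and in whole animals binding in fewer cells and weaker binding in each cell cannot be told apart. The embryo list comes from data published earlier that the submitters analysed beside their own, and its genotype is not given in the sources used here. A list gives only the position of each peak, without a score. There are no replicates and the sequencing depth is unknown, so the intervals below are exact 95% binomial or conditional odds ratio intervals that cover the number of peaks only. Neighbouring peaks are not independent, and no interval measures the spread between animals or cultures. Stage, source of the material, library and depth cannot be told apart in any comparison of lists. Coordinates are on the genome build dm3 and count from 1.

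Cmi, also named Lpt, is a PHD finger protein of the fly MLR complex, in which the methyltransferase Trr places monomethyl marks on lysine 4 of histone H3, chiefly at enhancers. The X is the large sex chromosome, present in a single copy in males and in a pair in females. In males its genes are transcribed at a raised level through the MSL dosage compensation complex, and S2 cells are of male type and carry that complex.

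Peaks were sparse on X in embryos and S2 cells, while larvae and prepupae came closer to the density of the autosomal arms (2L, 2R, 3L, 3R and 4). Embryos had 75.9 peaks per Mb on X against 135.9 on the autosomal arms, a ratio of 0.558. Larvae had 50.2 on X against 54.1 on the autosomal arms (ratio 0.928), and prepupae 66.9 against 77.7 (ratio 0.862). S2 cells had 30.6 on X against 51.7 on the autosomal arms (ratio 0.591). In number of peaks the embryonic X was the fullest of the 4.

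**Figure D1:**
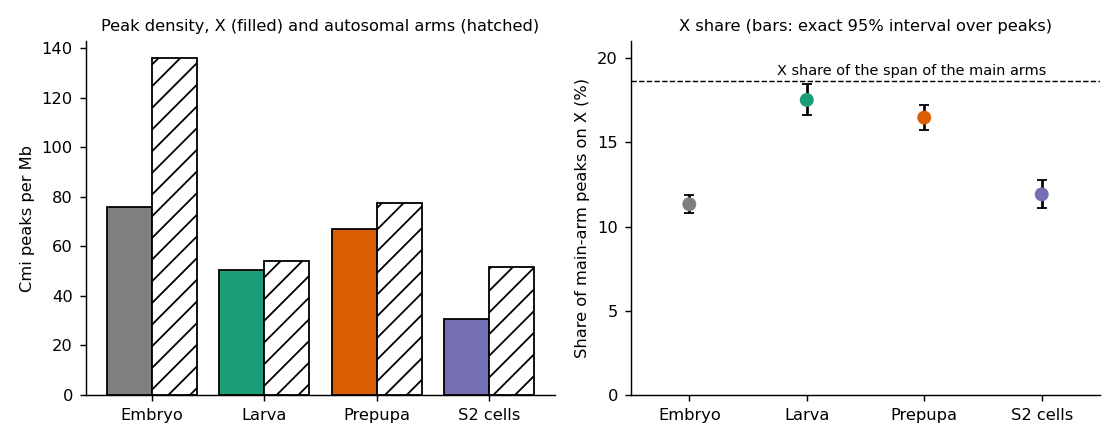
Left, Cmi peaks per Mb on X (filled) and on the autosomal arms (hatched) in each of the 4 lists. Right, the share of main-arm peaks on X with its exact 95% interval over peaks. The share lies at 17.5% in larvae and 16.5% in prepupae, near the 18.6% that X takes of the span of the arms (dashed), and at 11.3% in embryos and 11.9% in S2 cells.

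Among the 4 large autosomal arms no arm was as thinly covered as X in embryos, prepupae or S2 cells. The embryonic density of 75.9 peaks per Mb on X lay far below the range of 128.0 to 149.2 on 2L, 2R, 3L and 3R. The S2 density of 30.6 on X lay below their range of 37.0 to 70.9. The prepupal density of 66.9 on X was just under the lowest large arm (67.5, highest 86.6), and the larval density of 50.2 lay inside the range of 46.8 to 59.4. The small chromosome 4 was sparser than X in prepupae (38.5 peaks per Mb) and S2 cells (10.4). In embryos (115.4) and larvae (53.3) it was denser than X. In covered sequence X was below the autosomal arms in all lists but the larval one. Peaks covered 7.29% of X and 11.6% of the autosomal arms in embryos, 6.59% and 6.27% in larvae, 4.98% and 5.79% in prepupae, and 4.24% and 6.58% in S2 cells.

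The higher X share of larvae and prepupae held against each large autosomal arm alone. The odds of a peak lying on X rather than on the autosomal arms in larvae were 1.66 (1.53 to 1.81) times those in embryos. Taken arm by arm, this ratio was 1.81 against 2L, 1.66 against 2R, 1.50 (1.36 to 1.66) against 3L and 1.72 against 3R. For prepupae over embryos the ratio was 1.54 (1.43 to 1.66), with 1.67 against 2L, 1.58 against 2R, 1.32 (1.21 to 1.44) against 3L and 1.62 against 3R. The size depended on how peaks were divided. With peaks under 1 kb apart joined, the ratio over embryos against all autosomal arms was 1.33 (1.20 to 1.47) for larvae. For prepupae it was then 1.30 (1.18 to 1.43). Against S2 cells the size depended much more on the arm. Larvae over S2 cells gave 1.57 (1.42 to 1.74) against all autosomal arms, but 1.30 (1.14 to 1.49) against 2L, 1.31 (1.16 to 1.49) against 3L, 1.74 against 3R and 1.96 against 2R. Prepupae over S2 cells gave 1.46 (1.32 to 1.61), with 1.20 (1.06 to 1.36) against 2L and 1.16 (1.03 to 1.30) against 3L at the low end and 1.86 against 2R at the high end.

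To find the stretches of X that carry this difference, peak midpoints were counted in 23 bins of 1 Mb, the last of which is shorter. Embryonic peaks were spread most evenly. Their fullest bins were bin 20 (19000001 to 20000000) with 107 peaks, bin 2 (1000001 to 2000000) with 103 and bin 16 (15000001 to 16000000) with 102. Larval peaks were most numerous in bin 14 (13000001 to 14000000) with 92, bin 7 (6000001 to 7000000) with 86 and bin 2 with 83. Prepupal peaks were most numerous in bin 18 (17000001 to 18000000) with 110, bin 7 with 106 and bin 14 with 95. Bins 7 and 14 were thus among the 3 fullest of both larvae and prepupae, and of neither embryos nor S2 cells. Bin 7 was not sparse in embryos, however, with 96 embryonic peaks against 86 larval ones. Bin 23, at the centromere-proximal end of the sequence, was nearly empty, with 8 embryonic, 1 larval, 2 prepupal and 4 S2 peaks.

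**Figure D2:**
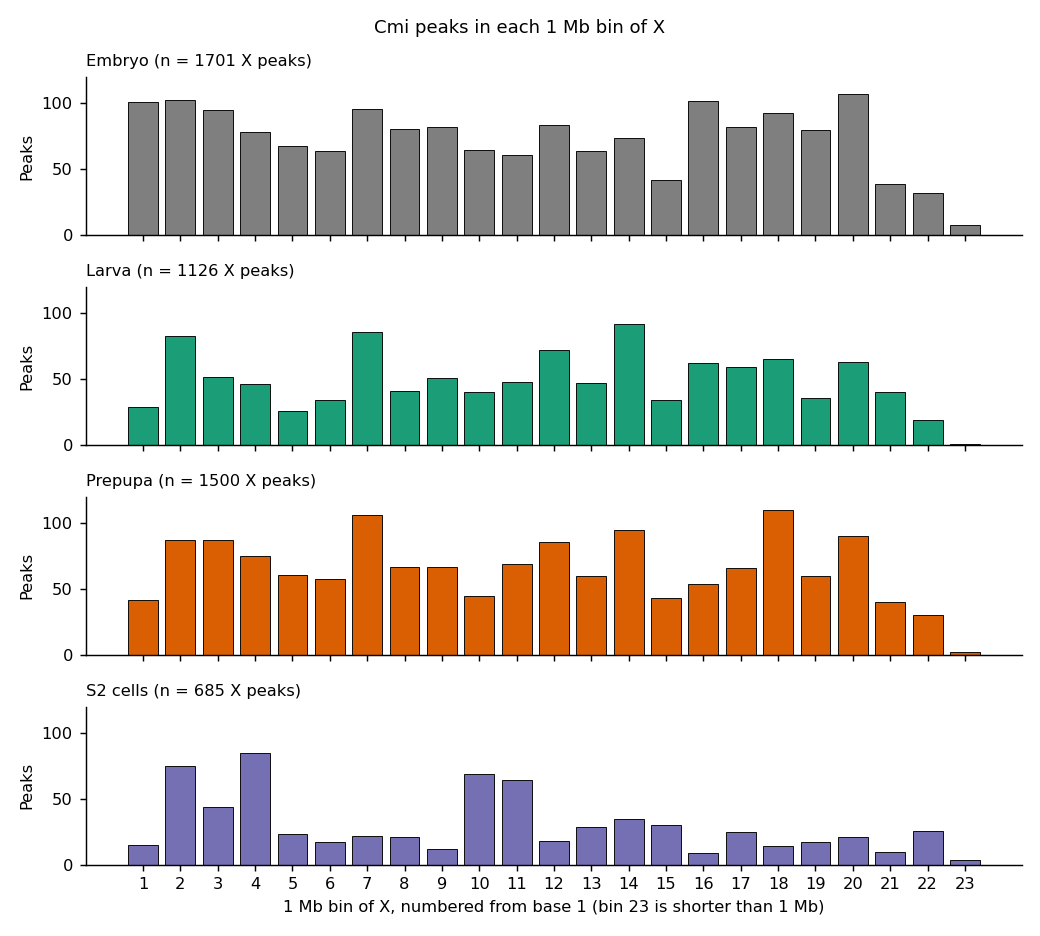
Number of Cmi peaks whose midpoint lies in each 1 Mb bin of X, in embryos, larvae, prepupae and S2 cells from top to bottom. Embryonic counts are between 32 and 107 in bins 1 to 22, bins 7 and 14 are among the 3 fullest of both larvae and prepupae, and S2 cells have 42.8% of their peaks in bins 2, 4, 10 and 11.

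Against embryos, the gain on X was spread along most of the chromosome. Each bin was given the percentage of a list's main-arm peaks that lie in it, so that the differences of the bins sum to the difference in X share. That sum was 6.19 percentage points for larvae minus embryos and 5.14 for prepupae minus embryos. The difference was above 0 in 20 of the 23 bins in both comparisons. The 3 largest larval gains were 0.94 points in bin 14, 0.70 in bin 7 and 0.61 in bin 2, together 36.2% of the larval sum. These are gains in share, and counts can go the other way. Larvae had more peaks than embryos in bin 14 (92 against 74), but fewer in bin 7 (86 against 96) and bin 2 (83 against 103). The 3 largest prepupal gains were 0.59 points in bin 18, 0.55 in bin 14 and 0.52 in bin 7, together 32.4% of the sum. Bin 1, at the distal tip of X (the telomere end), went the other way. It held 29 larval peaks (0.45% of the list) and 42 prepupal peaks (0.46%) against 101 embryonic ones (0.67%), a difference of -0.22 points for larvae and -0.21 for prepupae. The other 2 bins below 0 were bin 5 (-0.05) and bin 23 (-0.04) for larvae, and bin 16 (-0.09) and bin 23 (-0.03) for prepupae. With any 1 bin left out, the odds ratio over embryos stayed between 1.60 and 1.72 for larvae and between 1.51 and 1.59 for prepupae. Bin 14 was the bin whose removal lowered it most in both.

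Over embryos, the middle of X had the highest odds ratio and the distal 5 Mb the lowest. In bins 11 to 15 (10000001 to 15000000) the odds of a larval against an embryonic peak, relative to the autosomal arms, were 2.26 (1.92 to 2.67), and for prepupae over embryos 1.90 (1.63 to 2.22). In bins 1 to 5 (1 to 5000000) they were 1.33 (1.13 to 1.57) for larvae over embryos and 1.38 (1.20 to 1.60) for prepupae over embryos. The intervals of the middle and the distal stretch do not overlap in either comparison. Bins 6 to 10 and 16 to 20 lay between, at 1.63 and 1.54 for larvae and 1.55 and 1.43 for prepupae, each over embryos. The short stretch of bins 21 to 23 had 1.91 (1.34 to 2.71) for larvae and 1.59 (1.14 to 2.23) for prepupae. The low value of bins 1 to 5 rested in part on bin 1, with 101 embryonic, 29 larval and 42 prepupal peaks. There the share of main-arm peaks was 0.67 (larvae) and 0.69 (prepupae) times the embryonic one. In bins 2 to 5 this ratio lay between 0.89 and 1.88 for larvae and between 1.39 and 1.59 for prepupae. No odds ratio was computed for bins 2 to 5 without bin 1. In numbers, bins 11 to 15 held 293 larval peaks (26.0% of larval X peaks, 23.5 to 28.7) and 353 prepupal peaks (23.5%, 21.4 to 25.8), against 325 embryonic peaks (19.1%, 17.3 to 21.1).

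Against S2 cells the pattern was different: the gain was patchy and highest in bins 16 to 20. S2 peaks were crowded into few bins. Bins 2, 4, 10 and 11 held 75, 85, 69 and 64 S2 peaks, 42.8% of the S2 peaks on X. The same bins held 18.05% of the embryonic, 19.3% of the larval and 18.4% of the prepupal X peaks. The median bin had 22 S2 peaks. On the large autosomal arms the 4 fullest bins held between 23.3% (3R) and 36.4% (2L) of S2 peaks, so this share was higher on X than on any of them. It also depends on the number of bins, 23 on X and between 22 (2R) and 28 (3R) on these arms. The number of S2 peaks differed as well, with 685 on X and between 851 (2L) and 1578 (3R) on these arms. In bins 4, 10 and 11 larvae and prepupae had a lower share than S2 cells. The difference for larvae minus S2 was -0.76 points in bin 4, -0.58 in bin 10 and -0.37 in bin 11, and for prepupae minus S2 -0.65, -0.71 and -0.36. In bin 2 it was -0.01 for larvae and -0.35 for prepupae. Bins 22 (-0.16 and -0.12) and 23 (-0.05 in both) were also below 0 for larvae and prepupae, and so was bin 15 for prepupae (-0.05). The difference was above 0 in 17 of 23 bins for larvae and 16 of 23 for prepupae, some of them near 0 (bin 5, 0.005 points for larvae). It was largest in bin 7 for larvae (0.96 points) and in bin 18 for prepupae (0.96). In bins 16 to 20 (15000001 to 20000000), with 285 larval and 380 prepupal but only 86 S2 peaks, the odds ratio over S2 cells was 3.17 (2.47 to 4.09) for larvae and 2.94 (2.32 to 3.77) for prepupae. In bins 1 to 5 it was 0.93 (0.77 to 1.12) for larvae and 0.97 (0.82 to 1.15) for prepupae, both intervals including 1. The odds ratio over S2 cells for all of X stayed between 1.50 and 1.72 for larvae and between 1.38 and 1.58 for prepupae with any 1 bin left out.

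**Figure D3:**
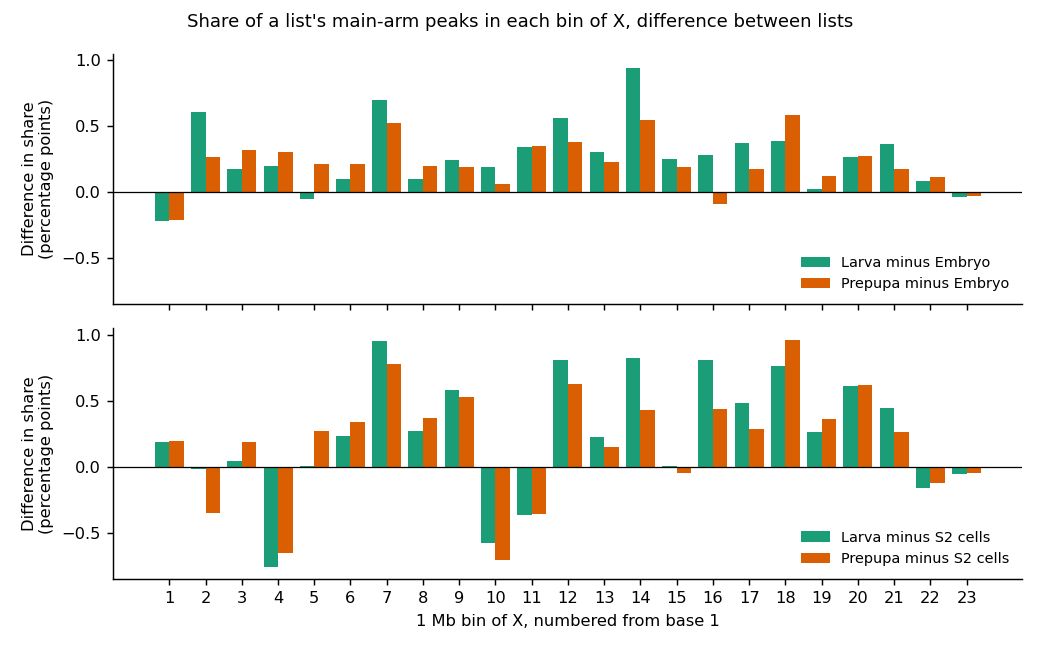
Difference in the share of main-arm peaks in each 1 Mb bin of X, in percentage points, for larvae and prepupae minus embryos (top) and minus S2 cells (bottom). Over embryos 20 of 23 bins are above 0 in each stage. Over S2 cells bins 4, 10 and 11 are clearly below 0, and bins 7, 12, 14 and 18 carry large gains.

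Gains over embryos were more common in bins of X than in bins of the autosomal arms. For every bin with at least 10 peaks in the list set against, the ratio of the 2 lists' shares in that bin was taken. For larvae over embryos, the median ratio was 1.45 over 22 X bins (lowest 0.67, highest 2.90) and 0.95 over 99 autosomal bins (0.28 to 1.78). The ratio was above 1 in 20 of the 22 X bins and in 44 of the 99 autosomal bins. Of the X bins 20 lay above the autosomal median, and 3 of the 99 autosomal bins lay above the X median. For prepupae over embryos the medians were 1.50 on X and 0.93 on the autosomal arms, again with 20 of 22 X bins above the autosomal median and 3 of 99 autosomal bins above the X median. Ratios above 1 numbered 20 of 22 on X and 42 of 99 on the autosomal arms. The shares of a list sum to a fixed total, so a higher share on X also lowers the autosomal ratios. Over S2 cells the medians were 1.75 on X and 0.87 on the autosomal arms for larvae, and 1.71 and 0.91 for prepupae. There the ranges of X and the autosomes ran together more: 14 and 17 of 94 autosomal bins exceeded the X median. For larvae over S2 cells 16 of 21 X bins and 43 of 94 autosomal bins had a ratio above 1. For prepupae over S2 cells these were 15 of 21 and 42 of 94. As a description across the 23 bins, counts of larvae and prepupae followed each other (Pearson r = 0.86, Spearman rho = 0.84) and those of embryos and larvae less closely (0.68 and 0.65). S2 counts followed none of them closely, with Pearson r between 0.13 and 0.22 and Spearman rho between -0.06 and 0.31. Bins share neighbouring peaks and the same 4 libraries.

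The next question was whether peaks on X were shared between lists as often as peaks elsewhere. Sharing meant an overlap of 1 bp or more with the other list, and the share over all main arms, X included, stands beside each value as the background. With every peak set to 500 bp, the share of X peaks with an S2 peak was 11.99% in embryos, 19.7% in larvae and 16.1% in prepupae, over 1.5 times below the shares given here. Sharing of X peaks depended strongly on which lists were set together. How often a peak meets another list also depends on how many peaks that list has there, and the densities given above differ between X and the autosomes.

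Embryonic peaks on X recurred at the later stages more often than embryonic peaks elsewhere. Of the 1701 embryonic X peaks, 763 (44.9%, 42.5 to 47.3) overlapped a larval peak, against 29.2% of those on the autosomal arms (background 31%). The share with a prepupal peak was 39.3% on X and 27.1% on the autosomal arms (background 28.5%). The odds ratios of X over the autosomal arms were 1.97 (1.78 to 2.19) for larvae and 1.74 (1.56 to 1.93) for prepupae. Both X shares lay above the range of the large autosomal arms, which reached 30.7% for larvae and 29.6% for prepupae. For S2 cells the order turned: 19.6% of embryonic X peaks had an S2 peak against 25.7% on the autosomal arms (background 25%), an odds ratio of 0.71 (0.62 to 0.80). On 2L, however, this share was lower still, at 17.1%. With any other list, 54.9% of embryonic X peaks and 43.3% of autosomal ones were shared (background 44.6%).

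Larval peaks on X had S2 counterparts less often than on any large autosomal arm. An S2 peak overlapped 338 of 1126 larval X peaks (30.0%, 27.4 to 32.8) and 47.9% of the autosomal ones (background 44.7%), an odds ratio of 0.47 (0.41 to 0.54). The large autosomal arms ranged from 38.5% (2L) to 56.3% (2R), while the small chromosome 4 had 8.33% of 72 larval peaks. An embryonic peak overlapped 62.1% of larval X peaks and 68.3% of autosomal ones (background 67.2%, odds ratio 0.76, 0.66 to 0.87). For prepupae the shares were 66.9% on X and 68.6% on the autosomal arms (background 68.3%), and the odds ratio of 0.92 (0.80 to 1.06) had an interval that included 1. Any other list overlapped 87.2% of larval X peaks and 91.3% of autosomal ones (background 90.6%).

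Prepupal peaks on X had a larval counterpart more often than elsewhere. This was so for 1035 of 1500 (69.0%, 66.6 to 71.3) on X and 60.8% on the autosomal arms (background 62.1%, odds ratio 1.44, 1.27 to 1.62), and the highest large autosomal arm reached 63.0%. An S2 peak overlapped 29.2% of prepupal X peaks and 40.0% of autosomal ones (background 38.2%, odds ratio 0.62, 0.55 to 0.70). For the embryo list the shares were 54.1% on X and 54.6% on the autosomal arms (background 54.6%, odds ratio 0.98, 0.87 to 1.09). Any other list overlapped 80.7% of prepupal X peaks and 77.9% of autosomal ones (background 78.4%).

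S2 peaks on X had an embryonic counterpart less often than on any large autosomal arm. Of the 685 S2 peaks on X, 300 (43.8%, 40.0 to 47.6) overlapped an embryonic peak, against 60.2% on the autosomal arms (background 58.3%, odds ratio 0.51, 0.44 to 0.61), and the lowest large autosomal arm stood at 54.9%. Their overlap with larvae, 50.5% on X and 49.6% on the autosomal arms (background 49.7%), gave an odds ratio of 1.04 (0.88 to 1.22). That with prepupae, 43.4% on X and 42.9% on the autosomal arms (background 42.9%), gave 1.02 (0.87 to 1.20). Any other list overlapped 61.0% of S2 X peaks and 71.8% of autosomal ones (background 70.6%).

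**Figure D4:**
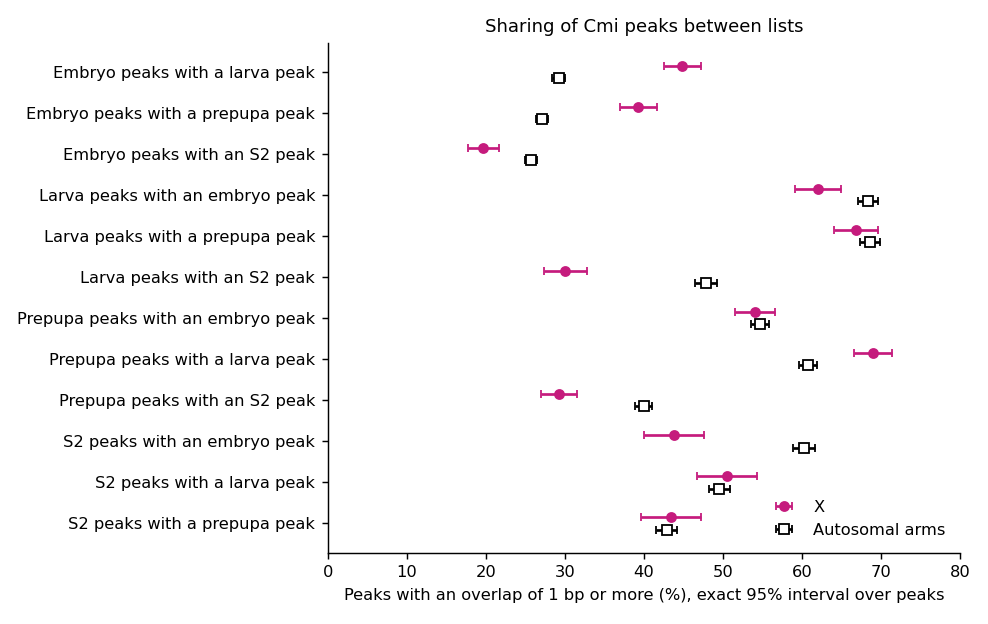
Share of peaks of each list that overlap a peak of another list, on X (filled circles) and on the autosomal arms (open squares), with exact 95% intervals over peaks. X lies to the right for embryo peaks in larva and prepupa and for prepupa peaks in larva, and to the left for overlaps with S2 cells and for larva and S2 peaks in the embryo list.

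Several of these differences between X and the autosomal arms were also seen within width classes. Each list was divided into 4 width classes of about equal number. The widest class ran from 1017 to 15263 bp in embryos and from 1468 to 14933 bp in larvae, so X and autosomal peaks within it were not matched for width. Embryonic X peaks met a larval peak in 19.6% of the narrowest class and 77.4% of the widest, against 10.4% and 63.6% on the autosomal arms, and the odds ratio lay between 1.80 and 2.30 in the 4 classes. Larval X peaks met an S2 peak in 17.9% of the narrowest and 50.3% of the widest class, against 30.4% and 76.0% on the autosomal arms, with odds ratios between 0.32 and 0.53. For prepupal X peaks in the larva list the odds ratio lay between 1.34 and 2.44, and for S2 X peaks in the embryo list between 0.37 and 0.58. All of these intervals excluded 1. For larval peaks in the embryo list the odds ratio was 0.61, 0.67 and 0.64 in the 3 narrower classes, with intervals below 1. In the widest class it was 1.002 (0.71 to 1.44), with 84.8% shared on both X and the autosomal arms. For embryonic peaks in the S2 list it was 0.70 (0.48 to 0.99) in the narrowest class, 1.19 (0.90 to 1.57) in the second, 0.57 in the next and 0.47 in the widest, so the second class lay on the other side of 1.

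Sharing with S2 cells varied along X. In the 4 fullest S2 bins, 54.4% (47.5 to 61.1) of larval X peaks had an S2 peak, and in the other 19 bins 24.2% (21.5 to 27.1). The same split gave 48.9% and 24.8% for prepupal and 43.0% and 14.5% for embryonic peaks. These bins were picked for their S2 counts, so the contrast is a description only.

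Merging all peaks that overlapped or touched gave 2455 regions on X, of 18923 on the main arms (13.0%). The X share differed widely between the 15 combinations of lists. It was highest, at 25.4% (22.8 to 28.1), for regions with a peak in embryos, larvae and prepupae but none in S2 cells: 277 of 1092 regions. Regions of larvae alone followed with 23.8% (144 of 604, 20.5 to 27.4), then those of larvae and prepupae with 20.7% (153 of 738, 17.9 to 23.8) and those of embryos and larvae with 20.2% (131 of 647, 17.2 to 23.6). In the small combination of larvae and S2 cells 21 of 89 regions were on X (23.6%, 15.2 to 33.8). What these combinations have in common is a larval peak, and all but the last lack an S2 peak. A larval peak did not by itself go with a high X share. Other combinations with larval and S2 peaks had lower shares: 7.46% (27 of 362) with embryos, 16.5% (52 of 316) with prepupae and 11.6% (178 of 1535) in all 4 lists.

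Regions held by embryos without a later stage had a low X share. Those of embryos alone had 9.22% on X (766 of 8312, 8.602 to 9.86), and those of embryos and S2 cells 6.38% (45 of 705, 4.69 to 8.45). Regions in all 4 lists lay on X in 11.6% of cases (178 of 1535, 10.04 to 13.3), and this interval included the share of all regions. Prepupa-only regions (14.7%, 13.2 to 16.4) and S2-only regions (15.8%, 14.1 to 17.6) lay a little above the share of all regions. Expressed per Mb, embryo-only regions numbered 34.2 on X and 77.0 on the autosomal arms, a ratio of 0.444. Regions of embryos, larvae and prepupae numbered 12.4 on X and 8.32 on the autosomal arms, a ratio of 1.49. The ratio also exceeded 1 for larvae alone (1.37), larvae with S2 cells (1.35), larvae with prepupae (1.14) and embryos with larvae (1.11). It was below 1 in the other 10 combinations. The small chromosome 4, with 192 regions, resembled X in part. Regions of embryos, larvae and prepupae made up 10.4% of its regions, 11.3% of those on X and 4.12% to 5.93% on the large arms. Larva-only regions made up 11.5% on chromosome 4 and 5.87% on X. Embryo-only regions (53.6% against 31.2% on X) and regions of larvae and prepupae (1.56% against 6.23%) did not follow X.

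**Figure D5:**
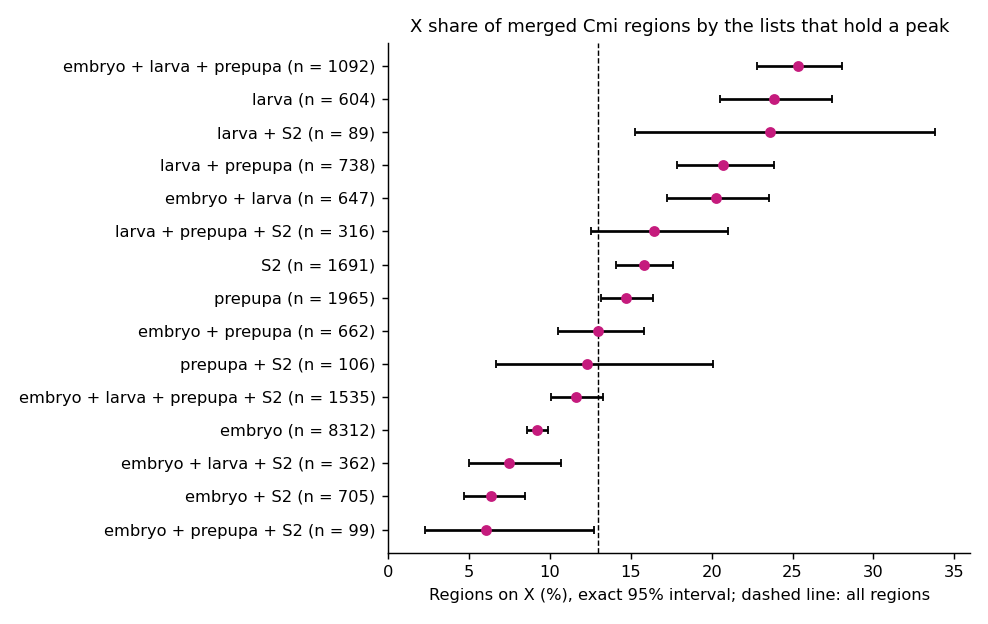
Percentage of merged regions on X for each of the 15 combinations of lists, with exact 95% intervals and the number of regions over all main arms in parentheses. The dashed line is the share over all regions (13.0%). The combination of embryo, larva and prepupa without S2 is highest at 25.4%, and the 3 combinations that hold embryo and S2 but not all lists lie lowest, between 6.06% and 7.46%.

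The X share of embryonic peaks was higher where a later stage had a peak in the same region. Embryonic peaks in regions with a larval or prepupal peak made up 39.4% of the list and had 14.98% (14.1 to 15.9) on X. Those without a later peak made up 60.6% of the list and had 8.96% (8.38 to 9.56) on X. Larval peaks in regions with an embryonic peak had 16.1% (15.003 to 17.2) on X, and those in regions without had 21.1% (19.3 to 23.04). For prepupal peaks these were 16.6% (15.6 to 17.6) and 16.3% (15.1 to 17.6). For larvae the 2 intervals do not overlap, and for prepupae they do. Divided by an overlapping S2 peak, the shares lay further apart. Larval peaks with an overlapping S2 peak had 11.8% (10.6 to 13.0) on X, close to the 11.9% of S2 cells as a whole, and larval peaks without one had 22.2% (20.8 to 23.6). Prepupal peaks with an S2 peak had 12.6% (11.5 to 13.7) on X, and those without had 18.9% (17.8 to 19.9). The division by S2 peaks adds little to the X shares of the lists. S2 peaks met a larval peak in 50.5% of cases on X and 49.6% on the autosomal arms. They met a prepupal peak in 43.4% and 42.9%. With such similar rates, larval and prepupal peaks that meet S2 peaks have about the X share of S2 cells, and the rest a higher one.

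The combinations were not evenly laid along X. Regions of embryos, larvae and prepupae without S2 cells made up 7.42% of the X regions in bins 1 to 5, 11.8% in bins 6 to 10, 12.2% in bins 11 to 15 and 14.2% in bins 16 to 20. In bins 21 to 23 they made up 10.2%. This order is not independent of the S2 list, which had 242 peaks in bins 1 to 5 and 86 in bins 16 to 20. Where S2 peaks are few, more regions lack one. No intervals were computed for the percentages of this paragraph. Bins 7, 12 and 18 held 23 regions of embryos, larvae and prepupae without S2 cells each. Regions of larvae and prepupae alone made up 8.80% of the X regions in bins 11 to 15 and 8.59% (11 of 128) in bins 21 to 23. In bins 1 to 5 they made up 4.35%. Larva-only regions made up 9.36% in bins 11 to 15, 3.1% in bins 21 to 23 and 2.90% in bins 1 to 5. Regions of all 4 lists were least frequent in bins 16 to 20 (4.83%) and reached 8.39% in bins 1 to 5 and 8.61% in bins 11 to 15. Embryo-only regions were most numerous in bin 1, with 68, and made up 23.8% of the X regions in bins 11 to 15 against 32.7% in bins 1 to 5 and 35.1% in bins 16 to 20.

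Larval and embryonic peaks were somewhat wider on X than elsewhere, and in prepupae and S2 cells the interval of that comparison included no difference. The median width in embryos was 602 bp on X and 533 bp on the autosomal arms, and 55.4% (53.0 to 57.8) of X peaks were wider than the autosomal median. In larvae the medians were 895.5 bp on X and 782.5 bp on the autosomal arms, with 55.4% (52.5 to 58.3) of X peaks above the autosomal median. In prepupae they were 508 bp on X and 493 bp on the autosomal arms (51.2%, 48.6 to 53.8), and in S2 cells 724 bp and 722 bp (50.1%, 46.3 to 53.9). Peaks of at least 3 kb made up 8.26% of larval X peaks and 5.87% of larval autosomal peaks, and in embryos 4.53% and 3.14%. The X share rose with width class in larvae, with 15.7% (13.9 to 17.6) in the narrowest, 16.4% and 18.02% in the next and 20.02% (18.1 to 22.1) in the widest class. In embryos it rose in the same order with 9.59%, 10.9%, 11.3% and 13.5%. In prepupae it stayed between 16.1% and 17.1% and in S2 cells between 11.1% and 12.8%, with overlapping intervals. In each width class of their own list larvae and prepupae had a higher X share than embryos or S2 cells had in any class. The lists begin at different widths, since the narrowest X peak measured 280 bp in embryos, 320 bp for larvae, 220 bp for prepupae and 340 bp for the S2 list.

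The broadest Cmi peaks of X had counterparts in every list, as nearly all of the broadest autosomal peaks did. Of the 5 widest X peaks of each list, all 20 overlapped the 3 other lists, and of the 5 widest autosomal peaks of each list 19 of 20 did. The 20 X peaks lay in 9 of the 23 bins. Among the 10 widest main-arm peaks of a list, 2 embryonic, 6 larval, 2 prepupal and 2 S2 peaks were on X, and among the 100 widest 11 embryonic, 23 larval, 16 prepupal and 14 S2 peaks. Of all main-arm peaks, 11.3% of the embryonic, 17.5% of the larval, 16.5% of the prepupal and 11.9% of the S2 peaks were on X. The embryonic, prepupal and S2 counts among the 100 widest lay near these shares. The foremost place was X from 2186055 to 2203726, where every list had a broad peak but divided it differently. Embryos had 4 peaks there, led by 1 of 11339 bp (2187511 to 2198849) and 1 of 4005 bp (2198903 to 2202907). Larvae had 1 peak of 14933 bp (2186642 to 2201574), the widest of their main-arm peaks. Prepupae had 6, among them 3 successive peaks of 5026, 4715 and 4062 bp from 2187176 to 2201332. S2 cells had 1 peak over the full 17672 bp. Peak counts there thus differed between lists that covered much of the same stretch.

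Other broad places of X were found in bins 4 and 13. The regions from 3632835 to 3646045 and from 3663293 to 3676144 had widest peaks of 4652 and 5568 bp in embryos, 11326 and 11483 bp in larvae, 4238 and 3348 bp for prepupae and 10589 and 12852 bp for S2 cells. The regions from 12640792 to 12651476 and from 12626093 to 12634174 had widest embryonic peaks of 4561 and 4346 bp, larval peaks of 7715 and 7960 bp, prepupal peaks of 6873 and 4121 bp and S2 peaks of 8070 and 6715 bp. The second widest larval peak on X, from 12552404 to 12565006 (12603 bp), lay close by and overlapped 9 embryonic, 9 prepupal and 2 S2 peaks. The widest prepupal peak on X ran from 1835809 to 1843416 (7608 bp) within a larval peak of 12204 bp (1835192 to 1847395). The S2 peak from 7588017 to 7605453 (17437 bp) overlapped 4 embryonic, 4 larval and 11 prepupal peaks, and that from 19037312 to 19050472 (13161 bp) overlapped 2, 4 and 7.

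X peaks without a counterpart in any other list numbered 767 of the 1701 embryonic (45.1%), 144 of the 1126 larval (12.8%), 290 of the 1500 prepupal (19.3%) and 267 of the 685 S2 peaks (39.0%). Over all main arms such peaks made up 55.4% of the embryonic, 9.40% of the larval, 21.6% of the prepupal and 29.4% of the S2 list. The widest of them measured 4630 bp in embryos (10715459 to 10720088), 1590 bp in larvae (20935565 to 20937154) and 1406 bp in prepupae (13030943 to 13032348). In S2 cells the widest was 7835 bp (21594860 to 21602694), and the next ones measured 5513 bp (10425272 to 10430784) and 4110 bp (10387704 to 10391813), both in bin 11, among the fullest S2 bins. Peaks could not be assigned to genes, since no annotation of dm3 was at hand, and absence of a peak from a list is no measure of absence of Cmi.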

How the data were processed

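The authors deposited each peak list as chromosome, start and end in bp, with starts counted from 0, which were turned to counting from 1. The lists hold no other measure, and the input libraries were not analysed here. The submitters' processing notes name BWA, MACS2 and the build dm3. Versions, threshold, use of the inputs and pooling: not given in the sources used here. Depth and threshold bear on the number and width of peaks and cannot be told apart from binding. Samples were grouped by their titles.

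Computations used Python 3.11.15, numpy 2.4.6, pandas 2.3.3 and scipy 1.17.1, with matplotlib 3.10.9 for figures. Shares have exact (Clopper-Pearson) and odds ratios exact conditional 95% intervals. Main arms are 2L, 2R, 3L, 3R, 4 and X, and densities use the highest peak end in any list as an arm's length. A peak belongs to the bin of its midpoint. No p-value was computed, since each group has 1 library. The overlap, merging and odds ratio steps were tested on simulated data. Regions named are the 5 widest X peaks of a list, the 3 widest without a counterpart, the 5 regions of all lists with the best mean width rank, and the 3 bins with most peaks and with the largest and smallest gain, of which the text gives a part. X peaks, lists, tests and bins were chosen with earlier results of these data known. The comparison with autosomal bins, the sharing on single arms, the 5 Mb stretches, the width classes, the gaps and the widest autosomal peaks were added after the lists had been read.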

Additional observations from a re-analysis of the deposited data

Results flagged for a closer look

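Peaks on XHet, heterochromatic sequence of the X that is kept apart from X in dm3, lie outside the comparisons. The embryo list has 7 of them, the larva list 2, the prepupa list 1 and the S2 list 2. The embryonic count is flagged because XHet peaks were not analysed here, and no threshold was applied to it. The embryo list is the longest, so these counts show no difference between lists.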

How the results depend on the processing

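The odds ratios of X for larvae and prepupae over embryos and over S2 cells stayed above 1, with intervals that excluded 1 where an interval could be had, under every alternative run. Some values moved, and the cause was not tested. The embryonic X share was 12.5% with peaks wider than the list's median, 12.3% with peaks of at least 500 bp, 13.1% with the widest peaks in equal number from each list, 13.4% with peaks under 1 kb apart joined and 12.6% of covered base pairs. The larval share was 19.02% with wide peaks and 19.4% of covered base pairs, and the S2 share 12.9% of covered base pairs. The ratios over embryos were lower with joined peaks (larvae 1.33, prepupae 1.30) and with equal numbers (larvae 1.43, prepupae 1.31), and prepupae over embryos gave 1.37 on covered base pairs. Prepupae over larvae, 0.928 (0.852 to 1.01) in full lists, moved to 0.862 with wide peaks, 0.881 against 3L, 0.818 on covered base pairs, 0.911 without bin 5 and 0.913 without bin 18, all but the covered value (no interval) with intervals below 1. Embryos over S2 cells (0.945, 0.859 to 1.04) had no stable direction: 1.05 with wide peaks, 1.01 from 500 bp, 1.11 with equal numbers, 1.08 with joined peaks, 0.717 against 2L, 1.18 against 2R, 0.876 against 3L, 1.01 against 3R, 1.03, 1.01 and 1.005 without bins 4, 10 and 11, and 0.900 without bin 16.

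Overlap of X peaks with any other list became 52.3% in embryos, 83.9% in larvae and 78.1% in prepupae when 50% of the shorter peak had to be covered. With the midpoint rule embryos had 48.3%, larvae 78.8%, prepupae 77.0% and S2 cells 53.4%. With 500 bp peaks embryos had 48.7%, larvae 80.7%, prepupae 66.7% and S2 cells 51.5%. With equal numbers embryos had 71.2%, larvae 79.3%, prepupae 83.8% and S2 cells 53.3%. The odds of overlap on X over the autosomal arms kept their side of 1 and of the interval except where the interval in full lists included 1 and for prepupae with any other list, which gave 1.03 (0.92 to 1.17) with 500 bp peaks. Larvae in prepupae gave 1.03 with 500 bp peaks, and S2 in larvae 1.21 with the midpoint rule, where the interval excluded 1. Prepupae in embryos gave 1.004 with 50% coverage, 1.03 with the midpoint rule, 1.02 with 500 bp peaks and 1.04 with equal numbers. The X share of regions in embryos, larvae and prepupae was 22.6% with 500 bp peaks, and with equal numbers that of embryo-only regions was 10.6% and that of regions in embryos and S2 cells 3.60% (1.93 to 6.08). The share of bins with a gain moved by less than its interval with shifted bins, 2 Mb bins and covered base pairs. No paired analysis was possible because each group has 1 library. Without depth or replicates, differences between lists cannot be told apart from differences between libraries.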

Other observations

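Spacing along X also differed between lists. The median gap between neighbouring X peaks was 3107.5 bp in embryos, where it was 1403 bp on the autosomal arms. In larvae it was 4364 bp on X and 5061 bp on the autosomal arms, in prepupae 1888 and 1811.5 bp, and in S2 cells 2960.5 and 2217 bp. Gaps under 1 kb made up 31.2% of embryonic gaps on X and 42.9% on the autosomal arms. The longest stretch of X without a peak was 343259 bp in embryos (21501883 to 21845141), 472386 bp for larvae (21942440 to 22414825), 365554 bp for prepupae (20533152 to 20898705) and 755282 bp for S2 cells (11712711 to 12467992). Of the larval peaks with a prepupal counterpart, 27.5% (24.3 to 30.8) on X and 27.1% (25.6 to 28.5) on the autosomal arms overlapped 2 or more prepupal peaks.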
